A study of Mus musculus with 14 samples.

Results

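The salt-inducible kinases Sik1, Sik2 and Sik3, the cAMP-responsive transcription factors Creb1 and Crem, the orphan nuclear receptors Nr4a1, Nr4a2 and Nr4a3, the cAMP-degrading enzyme Pde4b and the clock repressor Per1 were followed through an IL-4 stimulation of mouse bone marrow monocytes. These 10 genes were taken from the 55487 rows of the raw count table by matching each Ensembl identifier to its symbol, and all 10 had enough counts to be tested. Monocytes from the leg bones of wild-type or AhR-deficient mice (AhR is the aryl hydrocarbon receptor, a ligand-activated transcription factor) were purified with an isolation kit to between 90 and 95% purity by flow cytometry. Culture lasted 3 h, either without cytokine or in the presence of mouse IL-4 at 20 ng/mL. Wild-type cells gave 4 libraries in medium and 4 with IL-4, numbered 1, 2, 3 and 7, and AhR-deficient cells gave 3 and 3, numbered 4, 5 and 6. The strain, the age of the mice, the Ahr allele and whether a library came from 1 animal or a pool were not given in the sources used here. P-values therefore measure the spread between these libraries, which may in part be technical. Each number named 1 medium and 1 IL-4 library, and IL-4 changes were measured within numbers.

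Cyclic AMP is made by adenylyl cyclases downstream of G protein-coupled receptors, and it activates protein kinase A (PKA), which phosphorylates CREB and also inhibits the SIKs. Active SIKs phosphorylate the CREB coactivators of the CRTC family and class IIa histone deacetylases and so hold them in the cytoplasm. When SIKs are inhibited these proteins enter the nucleus, CREB targets are transcribed, and Sik1, Crem, the Nr4a genes, Pde4b and Per1 are among the genes known to be induced rapidly by cAMP in many cells. In macrophages the same pathway is known for its influence on IL-10 production, and Nr4a1 is needed for the non-classical subset of monocytes.

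The stretches upstream of the start sites of the Nr4a genes and Per1 are shown because they carry the letters of the half-site to which CREB binds, TGACG or its reverse complement CGTCA, in capitals below. They come from RefSeq promoter windows on GRCm38.p6, read 5′ to 3′ on the gene's strand, each running from 250 bases before the start and stopping before the first annotated exon. The Nr4a1 stretch is chr15:101266596-101266845 (+), inside the gene as annotated from an earlier start. Nr4a2 is chr2:57124004-57124253 (-), directly upstream of the gene. For Nr4a3 the stretch is chr4:48045055-48045152 (+), also directly upstream. Those of Per1 are chr11:69098699-69098947 (+) and chr11:69099902-69100151 (+), both inside the annotated gene.
Nr4a1: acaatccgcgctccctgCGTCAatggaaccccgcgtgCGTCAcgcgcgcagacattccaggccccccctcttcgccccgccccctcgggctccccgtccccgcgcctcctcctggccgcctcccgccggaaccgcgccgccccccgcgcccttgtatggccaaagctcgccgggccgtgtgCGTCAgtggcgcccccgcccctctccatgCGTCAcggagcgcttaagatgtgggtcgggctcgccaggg
Nr4a2: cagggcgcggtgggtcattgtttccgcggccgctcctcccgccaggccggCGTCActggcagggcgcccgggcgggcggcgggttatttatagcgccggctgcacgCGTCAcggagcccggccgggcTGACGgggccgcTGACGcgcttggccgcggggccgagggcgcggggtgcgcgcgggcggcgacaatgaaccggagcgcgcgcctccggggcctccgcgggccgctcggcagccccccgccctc
Nr4a3: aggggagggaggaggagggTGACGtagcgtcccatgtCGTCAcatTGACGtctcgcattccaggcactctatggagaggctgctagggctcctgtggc
Per1 first window: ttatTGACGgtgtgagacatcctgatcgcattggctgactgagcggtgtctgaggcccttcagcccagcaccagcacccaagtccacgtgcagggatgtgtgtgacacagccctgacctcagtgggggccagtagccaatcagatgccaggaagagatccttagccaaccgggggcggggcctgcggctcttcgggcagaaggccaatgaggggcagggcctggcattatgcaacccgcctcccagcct
Per1 second window: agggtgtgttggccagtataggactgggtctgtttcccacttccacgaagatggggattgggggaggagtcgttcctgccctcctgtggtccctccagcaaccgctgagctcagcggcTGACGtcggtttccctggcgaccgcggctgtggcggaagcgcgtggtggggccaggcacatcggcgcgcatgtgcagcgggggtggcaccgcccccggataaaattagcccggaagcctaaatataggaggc

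The printed stretch of Nr4a1 held 4 half-sites, that of Nr4a2 held 4, that of Nr4a3 held 3, and each Per1 stretch held 1. Over whole windows of 300 bases, 12 windows of 8 members were examined, and 8 of the 12 held at least 1 half-site on either strand. Member windows on chromosome 18, where Crem lies, were left out of the search, and Sik1 had no window. By comparison, 20.81% of all 32851 promoter windows did. The Sik2 window held 2 half-sites, the Sik3 window 3, 1 of the 4 Pde4b windows held 1, and the Creb1 window held none. None of the 12 windows held the full palindrome TGACGTCA, which contains both half-sites and occurred in 1.79% of all windows. The core of the AhR-binding element, GCGTG or its reverse complement CACGC, was in 6 of the 12 windows against 32.39% of all windows. The spacing of a STAT6 site, TTCNNNNGAA, was in none of the 12 and in 6.95% of all. These matches describe letters in a window and not binding.

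Before the results, several facts on the libraries bear on them. Column totals ran from 33432502 to 42885079 counts, and levels are given as CPM, counts scaled to library size with the trimmed mean of M-values (TMM). Ahr itself was higher in the libraries labelled AhR-deficient (20.9 ± 5.23 CPM in medium, SD, n = 3) than in wild type (13.02 ± 1.61 CPM, n = 4), with a log2 difference of 0.69 ± 0.14 (SE) and adjusted p = 0.0144 by edgeR's quasi-likelihood test. Counts over a whole gene cannot check a deletion whose position is not given, so each direction between genotypes below is between libraries as labelled. The female-specific transcript Xist stood at 987 CPM or more in every library labelled AhR-deficient and at no more than 2.12 CPM in wild type, and Y-linked Ddx3y had 0 counts in the former, so genotype and sex cannot be told apart. The 9 monocyte markers summed to between 16280 and 27770 CPM. The 11 neutrophil markers, none at 0 in any group, summed to between 379.7 and 1177 CPM, and the library of number 7 in medium (475.5 CPM) differed from its IL-4 partner (880.0 CPM). The 4 megakaryocyte markers summed to between 3.3 and 9.87 CPM, and 1 of them, Gp1bb, was at 0 in all 14 libraries.

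IL-4 moved most of these genes in both genotypes. In wild type, Nr4a3 and Per1 rose, and Sik1, Sik2, Sik3, Creb1, Nr4a1 and Pde4b fell, so 2 members rose and 6 fell (edgeR's quasi-likelihood test with the number as a block, Benjamini-Hochberg adjusted p under 0.05 over 14754 genes). Over all genes tested, 22.8% rose and 19.9% fell, so the share of members that rose was near the background and the share that fell was above it. In the libraries labelled AhR-deficient, Sik1, Nr4a2, Nr4a3 and Per1 rose and Sik3, Creb1 and Pde4b fell. That made 4 rising and 3 falling members, beside 18.4% and 17.8% of all genes. The 8 wild-type libraries did not overlap between medium and IL-4 for 4 of the 10 members, beside 33.2% of all genes, and in the other genotype for 6 of 10, beside 43.7%. The median log2 change of the 10 members was -0.21 in wild type and 0.02 in the libraries labelled AhR-deficient, where all genes had medians of 0.01 and -0.01.

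**Figure D1:**
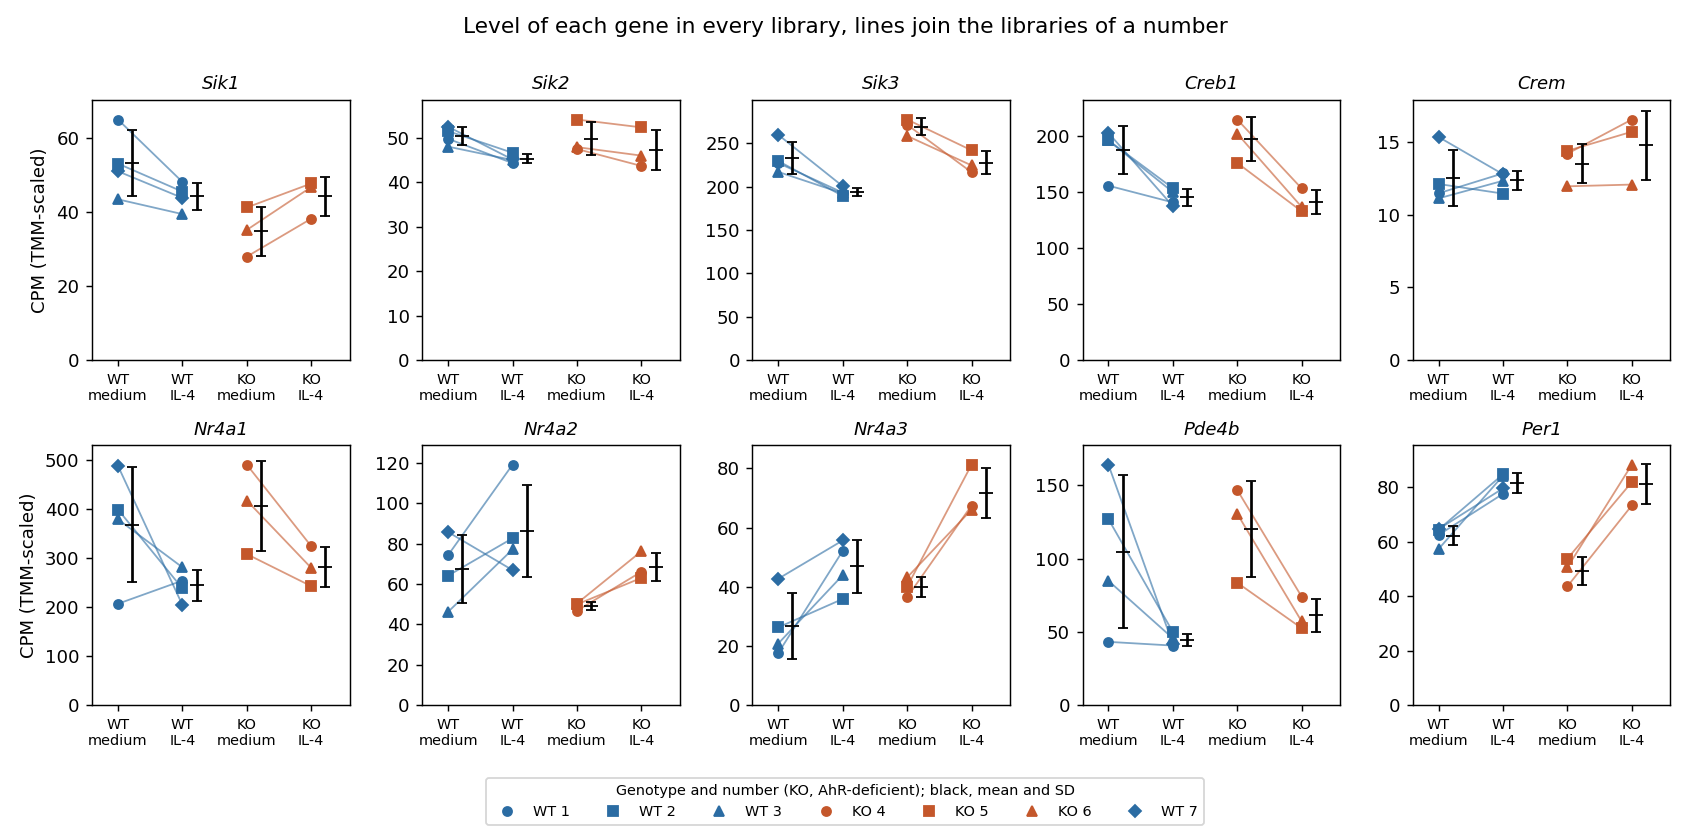
Level of the 10 genes in each of the 14 libraries (CPM after TMM scaling, linear axes from 0), with lines joining the medium and IL-4 library of a number, blue for wild type (WT), orange for libraries labelled AhR-deficient (KO) and black marks for the mean and SD. The Sik1 lines run downward in wild type and upward in the other genotype, the Per1 lines all run upward, and wild-type number 1 has the lowest Nr4a1, Pde4b and Creb1 levels in medium.

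Among the kinases, Sik1, the member of the family that is itself induced by cAMP, changed in opposite directions. In wild type, Sik1 (ENSMUSG00000024042.7, chr17:31844250-31855804, minus strand) went from 64.9 to 48.1 CPM in number 1, from 53.0 to 45.5 in number 2, from 43.4 to 39.4 in number 3 and from 51.0 to 43.8 in number 7. In the libraries labelled AhR-deficient it went from 27.9 to 38.2 CPM in number 4, from 41.2 to 47.7 in number 5 and from 35.1 to 46.7 in number 6. All 4 wild-type numbers were thus lower with IL-4 and all 3 of the other genotype higher, while the medium and IL-4 libraries overlapped within each genotype. Sik1 fell by 0.26 ± 0.06 (SE) on the log2 scale in wild type (adjusted p = 0.00412, edgeR) and rose by 0.36 ± 0.07 in the libraries labelled AhR-deficient (adjusted p = 0.00171). Without the block on numbers neither call held (adjusted p = 0.135 and 0.105), so both rest on measuring within numbers. Leaving out any 1 number left both calls in place, with log2 changes of -0.30 to -0.20 and of 0.31 to 0.43.

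The difference between the genotypes' IL-4 effects on Sik1, the interaction, was 0.61 ± 0.09 on the log2 scale (unadjusted p = 3.33e-05). It did not pass the threshold over all genes (adjusted p = 0.102, edgeR). No gene had a smaller adjusted p, but the Benjamini-Hochberg adjustment gives tied values. Sik1 shared this value with other genes, so it does not place Sik1 first among them. No gene was called for an interaction (0% of 14754 genes, edgeR), while 1251 genes had an unadjusted p under 0.05. With DESeq2's Wald test 60 genes were called, Sik1 among them (adjusted p = 0.000119), limma-voom called 0 genes (Sik1 at adjusted p = 0.0841), and edgeR without a filter on low counts called 268, again with Sik1 (adjusted p = 8.9e-06). Without the block its adjusted p was 1. With the neutrophil marker sum as a covariate, chosen after the data were seen, the interaction was 0.63 with adjusted p = 0.0307.

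Sik2 and Sik3, the constitutively expressed members of the family, were lower with IL-4 in every number of both genotypes, though Sik2 passed the test in wild type alone. Sik3 fell from between 217 and 260 CPM in wild-type medium to between 189 and 201 CPM with IL-4, and the groups did not overlap. Its log2 change was -0.27 ± 0.04 in wild type (adjusted p = 0.000533, edgeR). Among libraries labelled AhR-deficient, Sik3 went from 258.5 to 277.4 CPM in medium down to 216.6 to 241.9 CPM, again without overlap, a log2 change of -0.24 ± 0.05 (adjusted p = 0.00294, edgeR). Sik2 fell by 0.16 ± 0.04 on the log2 scale in wild type (adjusted p = 0.00775, edgeR), from between 48.1 and 52.6 CPM to between 44.4 and 46.7 CPM. That call was lost without the block (adjusted p = 0.0585). Among libraries labelled AhR-deficient its log2 change of -0.08 ± 0.05 did not pass (adjusted p = 0.224, edgeR). Sik2 shares 1429 exonic bases with the opposite-strand gene Ppp2r1b, a PP2A scaffold subunit that rose (log2 0.21, adjusted p = 0.00407, in wild type), and since the strand setting of the counting is not given, reads in that stretch cannot be told apart.

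**Figure D2:**
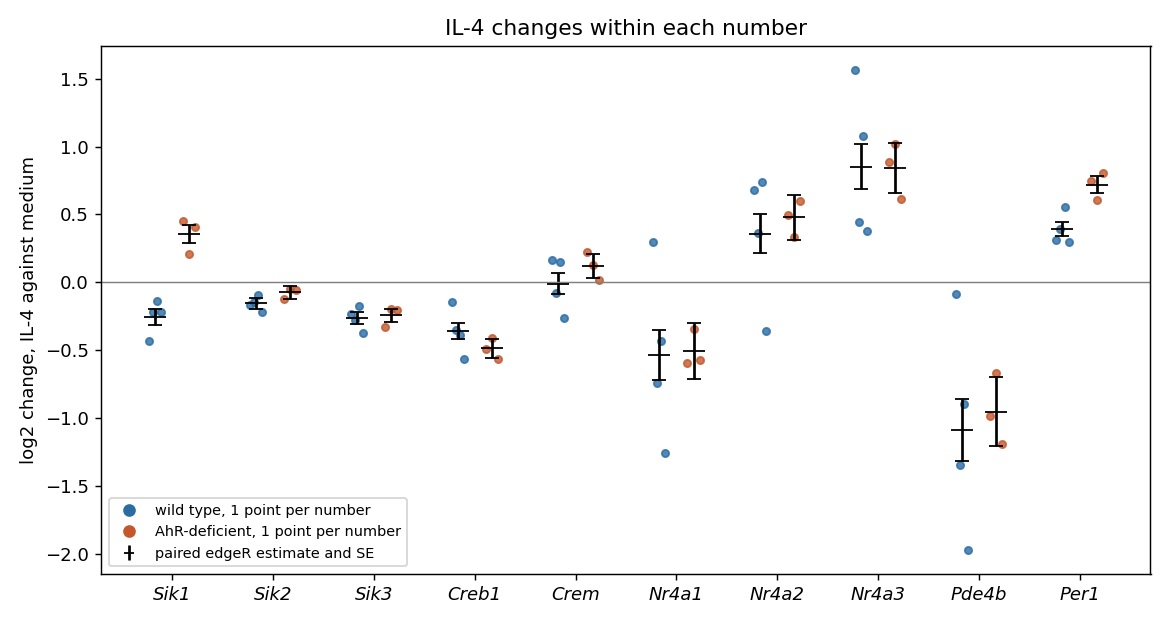
IL-4 change of each gene within each number (log2 of IL-4 over medium, 1 point per number, blue for wild type and orange for libraries labelled AhR-deficient), with the paired edgeR estimate and its SE in black. Sik1 lies below 0 in all 4 wild-type numbers and above 0 in all 3 others, while Pde4b and Nr4a1 spread widely across the wild-type numbers, Pde4b from -1.97 to -0.09.

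Creb1 encodes the factor phosphorylated by PKA. It fell from 155.5, 195.9, 195.8 and 202.6 CPM in wild-type numbers 1, 2, 3 and 7 to 140.6, 153.3, 149.8 and 137.3 CPM, and the groups did not overlap although number 1 in medium stood well below the others. The log2 change was -0.36 ± 0.06 (adjusted p = 0.000589, edgeR). Among libraries labelled AhR-deficient, Creb1 fell from 214.5, 175.8 and 201.9 CPM to 153.0, 132.6 and 136.5 CPM, without overlap, a log2 change of -0.49 ± 0.07 (adjusted p = 0.000247, edgeR). Crem, whose short cAMP-induced products repress CREB targets, was the least abundant member, with 401 to 628 counts per library. It stood between 11.1 and 15.3 CPM in wild-type medium and between 11.4 and 12.8 CPM with IL-4, and in the other genotype between 11.9 and 14.4 CPM and between 12.1 and 16.5 CPM. Its log2 changes of -0.01 ± 0.08 and 0.12 ± 0.09 did not pass (adjusted p = 0.938 and 0.329, edgeR). Counts per gene do not separate the short induced Crem isoforms from the others.

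The 3 Nr4a receptors, immediate early genes that share a DNA-binding domain, went different ways. Nr4a1, the most abundant, went in wild type from 206.9 to 254.1 CPM in number 1, from 399.1 to 238.3 in number 2, from 379.1 to 281.3 in number 3 and from 488.3 to 204.6 in number 7. Number 1 was therefore the exception, low in medium and higher with IL-4, and the groups overlapped. Nr4a1 fell by 0.54 ± 0.18 on the log2 scale in wild type (adjusted p = 0.0375, edgeR), a call that was lost without number 2, 3, 4, 6 or 7 (adjusted p = 0.0542 to 0.13). The log2 change was -0.30 without number 7 (adjusted p = 0.13) and -0.82 without number 1 (adjusted p = 0.000352). DESeq2 and the fit of the 8 wild-type libraries alone did not call it either (adjusted p = 0.0775 in each). In the libraries labelled AhR-deficient it went from 490.6 to 324.3, from 308.2 to 242.8 and from 417.5 to 280.0 CPM in numbers 4, 5 and 6, lower with IL-4 in each, but the log2 change of -0.51 ± 0.21 did not pass (adjusted p = 0.0848, edgeR). Without number 1 (adjusted p = 0.00782) or number 7 (adjusted p = 0.0166) of wild type it did, as it did in a fit of these 6 libraries alone (adjusted p = 1.33e-05).

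Nr4a3 rose in both genotypes. It went in wild type from 17.6 to 52.1 CPM in number 1, from 26.3 to 35.9 in number 2, from 20.8 to 43.9 in number 3 and from 42.7 to 55.6 in number 7. Every number was higher with IL-4, and the groups overlapped because number 7 in medium lay above number 2 with IL-4. The log2 change was 0.85 ± 0.16 (adjusted p = 0.00166, edgeR). Nr4a3 also rose in the libraries labelled AhR-deficient, from 36.5, 40.0 and 43.2 CPM to 67.5, 81.2 and 66.1 CPM without overlap, a log2 change of 0.84 ± 0.18 (adjusted p = 0.00418, edgeR). Nr4a2 went in wild type from 74.3 to 119 CPM in number 1, from 64.2 to 82.7 in number 2, from 46.2 to 77.2 in number 3 and from 85.7 to 66.9 in number 7. It was higher with IL-4 in 3 of 4 numbers, and its log2 change of 0.36 ± 0.14 did not pass (adjusted p = 0.069, edgeR). It was 0.24 without number 1 (adjusted p = 0.259) and 0.23 without number 3 (adjusted p = 0.295), and 0.59 without number 7 (adjusted p = 7.61e-05). Nr4a2 rose in the libraries labelled AhR-deficient from 46.8, 49.9 and 50.4 CPM to 66.1, 63.0 and 76.2 CPM without overlap (log2 0.48 ± 0.17, adjusted p = 0.0469, edgeR). That call was lost without the block (adjusted p = 0.105), with DESeq2 (adjusted p = 0.112) and without number 2, 4, 5 or 6 (adjusted p = 0.0617 to 0.2).

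Pde4b, which breaks down cAMP and is itself induced by it, had the widest changes of the members. In wild type it went from 43.2 to 40.7 CPM in number 1, from 127 to 49.99 in number 2, from 84.9 to 45.6 in number 3 and from 164 to 41.9 in number 7. Levels in medium thus spanned 43.2 to 164 CPM, and with IL-4 they lay within 40.7 to 49.99 CPM. Number 1 in medium overlapped the IL-4 libraries. Pde4b fell by 1.09 ± 0.23 on the log2 scale (adjusted p = 0.00284, edgeR). The log2 change was -1.41 without number 1 (adjusted p = 6e-05) and -0.80 without number 7 (adjusted p = 0.00445). In the libraries labelled AhR-deficient it fell from 147, 83.5 and 131 CPM in numbers 4, 5 and 6 to 74.0, 52.5 and 57.1 CPM, without overlap. That log2 change was -0.95 ± 0.26 (adjusted p = 0.0136, edgeR), and the call was lost without number 4 (adjusted p = 0.0754) or number 6 (adjusted p = 0.0948).

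Nr4a1, Pde4b and Creb1 varied together between libraries of a group. Over the 14 libraries the log2 levels of Nr4a1 and Pde4b had a Pearson r of 0.95, and after each group mean was removed r was 0.92. For Nr4a1 and Creb1 these values were 0.88 and 0.93. Sik1 ran the other way within groups, with r of -0.83 to Creb1 and -0.75 to Nr4a1 after group means were removed. The points share their libraries and, in pairs, a number, so these are descriptions. Wild-type number 1 in medium illustrates them, with the lowest Nr4a1, Pde4b and Creb1 and the highest Sik1 of its group. The 8 non-classical monocyte markers, none at 0 in any group, were lower with IL-4 in every number: they summed to 1984, 2642, 2977 and 2591 CPM in wild-type medium numbers 1, 2, 3 and 7 and to 1214, 1615, 1569 and 1178 CPM with IL-4. In the other genotype that sum was between 2409 and 2937 CPM in medium and between 1448 and 1625 CPM with IL-4, and 7 of the 8 markers fell and 1 rose in each genotype. A lower sum was not particular to this list. The 9 general monocyte markers fell in sum from 24150 to 27770 CPM down to 16280 to 18260 CPM in wild type. In the other genotype they fell from 23920 to 27550 CPM down to 16310 to 18060 CPM. Lyz2 was the largest part of that sum, with means of 16720 CPM in wild-type medium and 8615 CPM with IL-4. In the other genotype its means were 16620 and 9373 CPM. Of these 9, 4 fell and 2 rose in each genotype, so the lower sum does not describe every marker of the list. The non-classical sum and Nr4a1 did not run in step throughout. In wild-type number 1 the sum was lower with IL-4 and Nr4a1 higher. In wild-type medium the sum was highest in number 3 and Nr4a1 in number 7. The part of these markers in the Nr4a1 result was not tested. In bulk RNA, fewer cells of a type and less RNA per cell cannot be told apart.

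**Figure D3:**
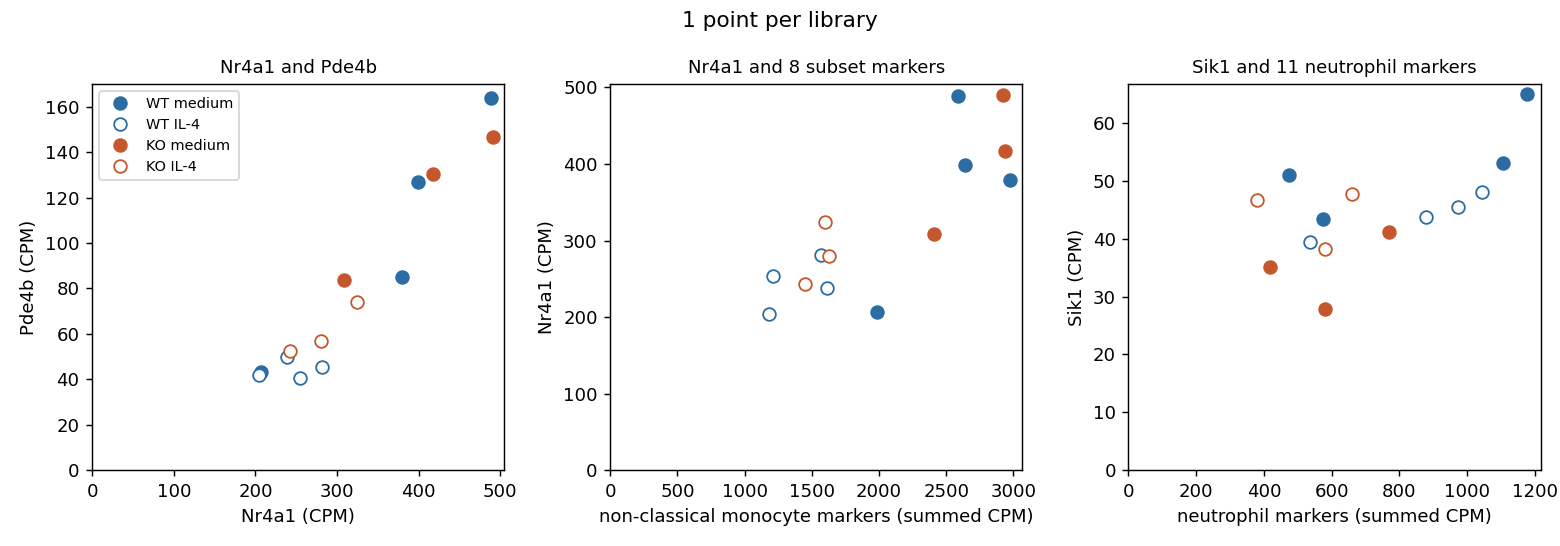
Levels by library (1 point each, filled for medium and open for IL-4, blue for wild type and orange for libraries labelled AhR-deficient, linear axes from 0) of Pde4b against Nr4a1, of Nr4a1 against the summed CPM of 8 non-classical monocyte markers, and of Sik1 against the summed CPM of 11 neutrophil markers. Pde4b and Nr4a1 lie along 1 line, with wild-type number 1 in medium (206.9 and 43.2 CPM) among the IL-4 libraries.

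Per1 rose in every number of both genotypes. This repressor of the circadian clock is induced by cAMP and also by glucocorticoids. In wild type it went from 62.5 to 77.6 CPM in number 1, from 64.4 to 84.7 in number 2, from 57.3 to 84.2 in number 3 and from 64.6 to 79.6 in number 7. In the libraries labelled AhR-deficient it went from 43.6 to 73.3, from 53.8 to 81.9 and from 50.6 to 88.3 CPM in numbers 4, 5 and 6. All IL-4 libraries lay above all medium libraries of their genotype. The log2 changes were 0.39 ± 0.05 in wild type (adjusted p = 0.000122, edgeR) and 0.72 ± 0.06 in the libraries labelled AhR-deficient (adjusted p = 5.01e-06, edgeR). The interaction of 0.33 ± 0.08 did not pass (unadjusted p = 0.00178, adjusted p = 0.342, edgeR). Without a filter on low counts it did (adjusted p = 0.0122, edgeR), but in no other alternative. It was not called with DESeq2 (adjusted p = 0.0957), limma-voom (0.304) or the random block (0.432), or when any number was left out. None of the other 8 members had an interaction with an unadjusted p under 0.05.

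Between genotypes in medium, Sik1 and Per1 were lower in the libraries labelled AhR-deficient, and no member was called higher. Sik1 stood at 34.8 ± 6.64 CPM (SD, n = 3) against 53.1 ± 8.92 CPM in wild type (n = 4), and Per1 at 49.3 ± 5.19 against 62.2 ± 3.41 CPM. The libraries of the 2 genotypes did not overlap for either gene. These were 2 of 10 members, beside 20% of all genes, so the share without overlap was that of the background. The log2 difference, libraries labelled AhR-deficient minus wild type, was -0.61 ± 0.14 for Sik1 and -0.34 ± 0.08 for Per1 (adjusted p = 0.0238 for each, edgeR), where 3.95% of all genes were called lower. Sik1 was no longer called without number 1, 2, 4 or 6 (adjusted p = 0.0612 to 0.125), and Per1 without number 1, 2 or 4 (adjusted p = 0.0565 to 0.1). Neither passed in a fit of the 7 medium libraries alone (adjusted p = 0.0956 and 0.0765). With the neutrophil marker sum as a covariate the Sik1 difference was -0.51 (adjusted p = 0.0505); that sum was between 475.5 and 1177 CPM in wild-type medium and between 419.5 and 768.9 CPM in the other genotype.

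With IL-4 no difference was detectable for either gene. The Sik1 mean was 44.2 ± 3.65 CPM among the wild-type libraries and 44.2 ± 5.23 CPM among those labelled AhR-deficient, and that of Per1 was 81.5 ± 3.52 and 81.2 ± 7.50 CPM. The SE of the log2 difference was 0.14 for Sik1 and 0.08 for Per1. The Sik1 interaction of 0.61 is drawn from the same libraries as its difference of -0.61 in medium, so these are not separate results. The same holds for the Per1 interaction of 0.33 and its difference of -0.34 in medium. No member was called between genotypes with IL-4, beside 1.62% of all genes (edgeR), and 2 had an unadjusted p under 0.05. Those were Sik3 (227.6 ± 12.98 against 193.8 ± 4.74 CPM in wild type, log2 difference 0.23 ± 0.06, adjusted p = 0.0662) and Nr4a3 (71.6 ± 8.39 against 46.9 ± 8.83 CPM, log2 difference 0.61 ± 0.23, adjusted p = 0.181). For 3 of 10 members, Sik3, Nr4a3 and Pde4b, the libraries did not overlap, beside 18.2% of all genes. DESeq2 called Sik3 (adjusted p = 0.00721), and the fit of the 7 IL-4 libraries alone called Sik3 and Nr4a3 (adjusted p = 0.0412 and 0.0487), as did leaving out number 7 (adjusted p = 0.0435 and 0.0445). The random block called Sik3 (adjusted p = 0.0499). In medium Sik3 differed by 0.21 ± 0.06 in the same direction without passing (adjusted p = 0.0522, edgeR). It was called with DESeq2 (adjusted p = 0.0182), limma-voom (0.0493), the random block (0.0414) and without number 7 (0.0206). The Nr4a2 difference in medium of -0.46 ± 0.20 (adjusted p = 0.153) did not pass, and without number 3 it was -0.61 (adjusted p = 0.0416). The Nr4a3 difference of 0.57 ± 0.24 (adjusted p = 0.139) did not pass either, and without number 7 it was 0.88 (adjusted p = 0.012).

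Per length of annotated exon, the level of Nr4a1 was far above that of the other members in wild-type medium, at 105 ± 33.5 CPM per kilobase (SD, n = 4). Sik3 came next at 25.1 ± 1.97, and neither range overlapped the gene below it in the order. There followed Nr4a2 at 16.7, Creb1 at 13.6, Per1 at 11.1, Sik1 at 10.3, Pde4b at 9.92, Sik2 at 5.30 and Nr4a3 at 4.49 CPM per kilobase, each overlapping its lower neighbour apart from Nr4a3. Crem was lowest at 2.12. With IL-4 in wild type Nr4a1 stayed highest at 69.7 ± 9.13 CPM per kilobase and Crem lowest at 2.09 ± 0.11. Nr4a3 then stood at 7.83 ± 1.48, above Pde4b at 4.22 ± 0.40 with ranges that did not overlap.

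Other genes with the most similar pattern were found by Pearson's r of log2 CPM with each member over the 14 libraries, among the 9944 genes whose mean log2 CPM reached 1. Nearest to Sik1 were Gsdme (r = 0.93), Lpin1 (0.92) and Tm6sf1 (0.92), and nearest to Per1 were Tlr8 (0.97), Cnr2 (0.97) and Wipf1 (0.97). For Pde4b they were Ets2 (0.97), Cd69 (0.97) and Map3k8 (0.96), and for Nr4a1 they were Pde4b (0.95), Tug1 (0.95) and Ccnt1 (0.95). Creb1 ran closest to Ptpn12 (0.97), Nr4a3 to Htr7 (0.95), Sik3 to Fzd1 (0.97), Nr4a2 to Ube2g1 (0.90), Sik2 to Atmin (0.86) and Crem to Pla1a (0.82). After group means were removed, the genes nearest to Pde4b were Tnfaip3 (0.98), Pim1 (0.98) and Cd83 (0.98), those nearest to Nr4a1 were Ptpn12 (0.98), Zc3h12c (0.97) and Ets2 (0.97), and Sik1 ran closest to Cep131 (0.98). All pairs share the same libraries, and no test was made.

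Upstream of the members, the genes for receptors, G protein subunits and cyclases that control cAMP changed in both directions. This list includes the inhibitory subunit genes Gnai2 and Gnai3, so its counts do not give a direction for cAMP. Of 16 tested, 4 rose and 6 fell in wild type, and 3 rose and 7 fell in the libraries labelled AhR-deficient, with median log2 changes of -0.23 and -0.21. Over all genes tested, 22.8% rose and 19.9% fell in wild type and 18.4% and 17.8% in the other genotype, with medians of 0.01 and -0.01, so the share of this list that rose was near the background. Adcy7, an adenylyl cyclase of blood cells, rose by 1.37 ± 0.05 and 1.48 ± 0.06 on the log2 scale in the 2 genotypes, and Adcy3, another cyclase, by 1.52 ± 0.22 and 0.91 ± 0.26. The prostacyclin receptor gene Ptgir rose by 1.002 ± 0.10 and 0.53 ± 0.12. Ptger4, the gene of the prostaglandin E2 receptor EP4, fell by 1.37 ± 0.18 and 1.46 ± 0.20. Of 14 genes for PKA subunits, anchors and EPAC proteins tested, 5 rose and 3 fell in wild type, and 7 rose and 2 fell in the other genotype (medians 0.01 and 0.09), and the share that fell in wild type was near that of all genes. Prkar1b, a regulatory subunit of PKA, rose by 3.01 ± 0.13 and 2.45 ± 0.15, the catalytic subunit gene Prkaca by 0.47 ± 0.06 and 0.43 ± 0.06, the regulatory subunit gene Prkar2a by 0.31 ± 0.05 and 0.47 ± 0.06, and Akap1, an anchor on mitochondria, by 1.06 ± 0.11 and 1.03 ± 0.13.

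Other cAMP phosphodiesterases changed nearly without exception. Of 8 tested, beside 22.8% rising and 19.9% falling among all genes in wild type and 18.4% and 17.8% in the other genotype, 3 rose and 5 fell in wild type, and 2 rose and 5 fell in the libraries labelled AhR-deficient (medians -0.37 and -0.42). Pde3b fell by 1.55 ± 0.09 and 1.20 ± 0.10, Pde4d, a close relative of Pde4b, by 1.44 ± 0.12 and 1.13 ± 0.14, and Pde8a by 0.49 ± 0.04 in each genotype. Pde7b rose by 2.27 ± 0.07 and 2.16 ± 0.07. In the list of CREB relatives, coactivators and SIK regulators and substrates, 9 of 22 rose and 5 fell in wild type, and 6 rose and 3 fell in the other genotype (medians 0.06 and 0.03). Hdac4, a class IIa deacetylase held back by SIKs, rose by 0.70 ± 0.05 and 0.65 ± 0.06, and the CREB relative Atf1 by 0.54 ± 0.04 and 0.50 ± 0.05, while Creb1 fell. The SIK-regulated coactivator gene Crtc1 rose by 0.38 ± 0.05 and 0.33 ± 0.06, and Creb3 by 0.16 ± 0.04 and 0.32 ± 0.05.

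Among 31 tested CREB-target and immediate early genes other than the members, 10 rose and 16 fell in wild type and 10 rose and 12 fell in the libraries labelled AhR-deficient, with medians of -0.29 and -0.09. Among all genes, 22.8% rose and 19.9% fell in wild type and 18.4% and 17.8% in the other genotype. Irs2, the insulin receptor substrate, rose by 1.56 ± 0.04 and 1.40 ± 0.05, the transcription factor gene Nfil3 by 1.66 ± 0.08 and 1.71 ± 0.09 and Klf4 by 0.92 ± 0.05 and 0.62 ± 0.06. Thbs1, a matrix glycoprotein, fell by 3.51 ± 0.12 and 2.58 ± 0.13. Of 18 clock and glucocorticoid-response genes beside Per1, 2 rose and 10 fell in wild type, and 2 rose and 5 fell in the other genotype (medians -0.30 and -0.19). The glucocorticoid-induced gene Fkbp5 rose by 1.54 ± 0.05 and 1.38 ± 0.06 and the clock repressor Cry1 by 0.72 ± 0.06 and 0.62 ± 0.07. The nuclear receptor genes Rora (0.70 ± 0.06 and 0.50 ± 0.07) and Nr1d2 (0.52 ± 0.05 and 0.49 ± 0.05) were lower by these log2 amounts. All genes named from these lists passed in both genotypes (edgeR), and no gene of any of the 6 lists was called for an interaction.

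**Figure D4:**
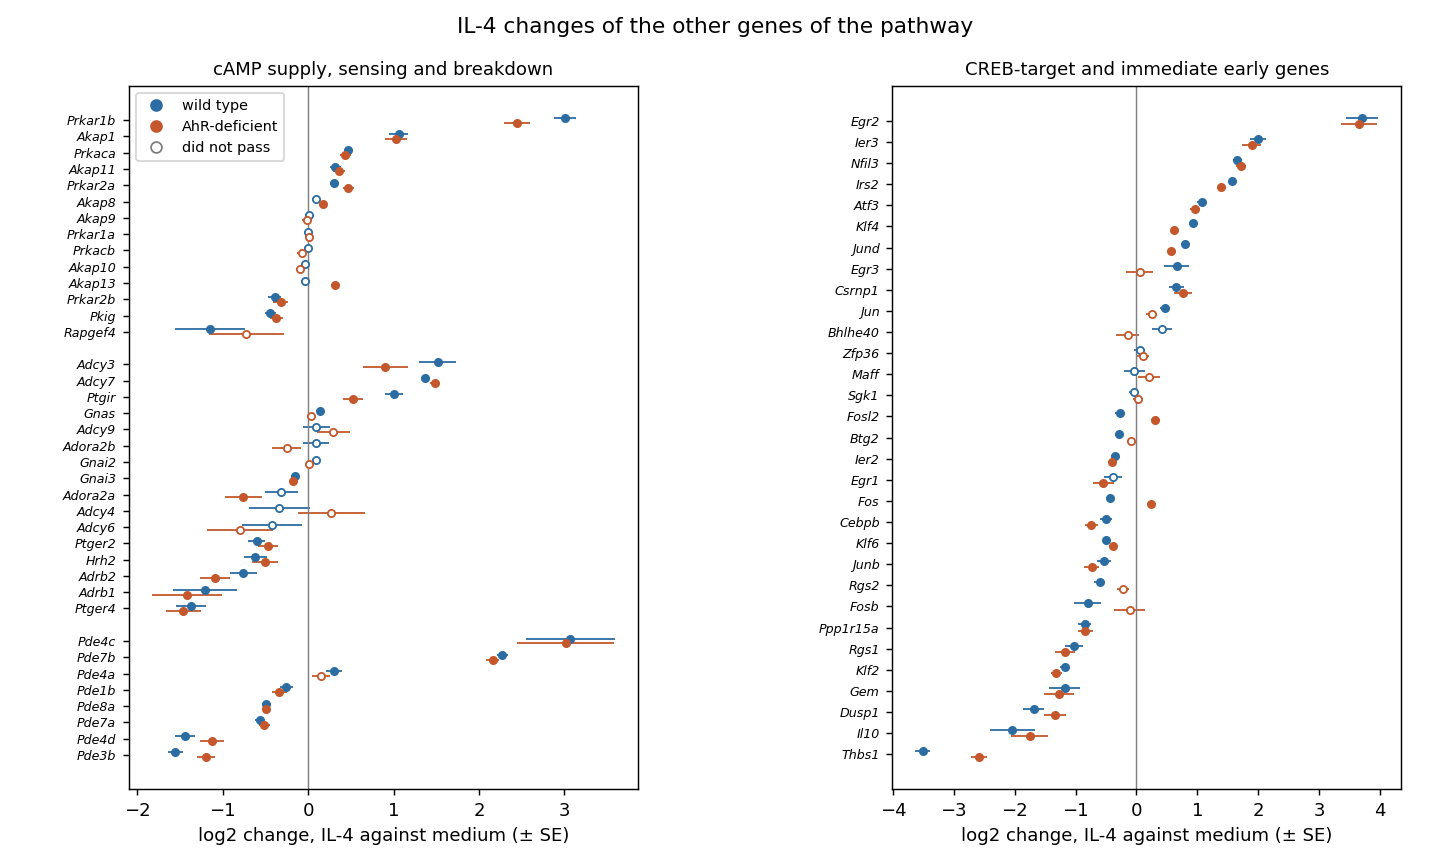
Log2 change with IL-4 (± SE) of the other genes of the pathway, at left the PKA list (top), the receptors, G protein subunits and cyclases (middle) and the phosphodiesterases (bottom), at right the CREB-target and immediate early genes, blue for wild type and orange for libraries labelled AhR-deficient, filled where the gene was called. Genes lie on both sides of 0 in each list, for example Pde7b at 2.27 and Pde3b at -1.55 in wild type.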

How the data were processed

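The deposited table holds raw counts per gene, 1 column per library, per the file headers; all values were whole numbers. RNA (500 ng) was made into libraries with a stranded mRNA kit and read as paired 100-nt reads, per the labels' protocols. FastQC, STAR and the mm10 build are named in the submitters' processing notes; which program counted reads, with which strand setting and filters, is not given in the sources used here. Of 55487 identifiers, 55094 matched GENCODE M21 (GRCm38) with their version, which gave symbols, positions and exon lengths.

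Genes kept by filterByExpr (14754) were scaled by TMM and fitted in R 4.3.3 with edgeR 4.0.16's quasi-likelihood model over all 14 libraries. IL-4 responses and the interaction had the title number as a fixed block (5 residual degrees of freedom), and genotype contrasts had 1 mean per group (10). The genotype fit thus treated the medium and IL-4 libraries of a number as independent, since no number occurs in both genotypes. P-values were Benjamini-Hochberg adjusted over all genes kept. The SE of a fold change is its size over the square root of F. With group means taken out, libraries sharing a number correlated at r of 0.276 to 0.489 over all genes tested. Over 8688 more abundant genes r was 0.118 to 0.716, lowest for number 7. Within a genotype, the medium and IL-4 libraries of a number were each other's best match in 7 of 7 numbers over all genes tested. Over the more abundant genes this held in 6 of 7, and number 7 was the exception. The numbers were taken to pair the libraries. The block is the first choice because the comparison was set as one within numbers. Alternatives were no block, a random block, other scaling, tests (DESeq2 1.42.0, limma-voom from limma 3.58.1) and filters, only the groups compared, each number left out, and, chosen after the data were seen, the neutrophil marker sum as a covariate. Steps were tested on simulated data. Figures were drawn with matplotlib 3.10.9.

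Members, lists and tests were chosen with earlier results of these data known. All 10 members are named; in each list the 4 genes with the smallest p in the IL-4 response of either genotype are named, and for each member the nearest genes by r. Of the lists, Pkia, Rapgef3, Pde2a and Areg had too few counts to be tested.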

Additional observations from a re-analysis of the deposited data

Results flagged for a closer look

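The IL-4 effect on Sik1 differed in direction between the genotypes: all 4 wild-type numbers were lower with IL-4 and all 3 numbers labelled AhR-deficient were higher. The difference of the effects was 0.61 on the log2 scale, with adjusted p = 0.102 by edgeR's quasi-likelihood test, so the test of the difference did not pass over all genes.

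Creb1 in wild-type medium had 1 library far from the others, number 1 at 155.5 CPM, where the other 3 stood between 195.8 and 202.6 CPM. It was the single such group among 20 examined (10 members in the 2 wild-type groups), and chance gives about 1 in 20. Without number 1 the wild-type IL-4 change of Creb1 was -0.44 on the log2 scale (adjusted p = 5.34e-05, edgeR).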

How the results depend on the processing

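The number of members called in the IL-4 responses stayed within 1.5 times of 8 (wild type) and 7 (libraries labelled AhR-deficient) under every alternative run. Without the replicate block, counts fell to 6 and 5, and over all genes to 5296 (from 6297) and 4359 (from 5344) calls. Members called for an interaction, 0 in the report, were 1 with DESeq2, 2 without a filter and 1 with the neutrophil covariate. Members called between genotypes in medium, 2 in the report, ranged from 0 to 4 when a number was left out, were 0 with only the groups compared and 1 with the covariate, and in IL-4, 0 in the report, ranged from 0 to 2 when a number was left out and were 1 with the random block, 1 with DESeq2 and 2 with only the groups compared. The count over all genes for the difference in medium, 1197, was 59 with only the groups compared and 1990 with DESeq2. The cause of these changes was not tested.

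No value that changed sign had been called, and none was called after the change. When a number was left out, log2 values ranged over -0.077 to 0.072 for Crem with IL-4 in wild type. For the interaction they ranged over -0.204 to 0.324 (Nr4a1), -0.11 to 0.252 (Nr4a2), -0.173 to 0.235 (Nr4a3), -0.147 to 0.473 (Pde4b) and -0.006 to 0.065 (Sik3). For the difference in medium they ranged over -0.016 to 0.147 (Creb1), -0.07 to 0.3 (Nr4a1), -0.07 to 0.495 (Pde4b) and -0.086 to 0.016 (Sik2), and in IL-4 over -0.055 to 0.095 (Sik1), -0.011 to 0.119 (Sik2) and -0.071 to 0.062 (Per1). Nr4a3's interaction was 0.04 without the replicate block, 0.004 with DESeq2 size factors, 0.006 with limma-voom, 0.016 without a filter and 0.007 with the stricter filter. In IL-4, the Per1 difference was 0.008 with DESeq2 size factors and with DESeq2, 0.001 without a filter and 0.004 with the stricter filter, and the Sik1 difference was -0.001 with the random block and with limma-voom and -0.015 with upper-quartile scaling. With the covariate, Crem in wild type was 0.022, the interaction was -0.074 (Nr4a2), -0.114 (Pde4b), -0.01 (Sik3) and -0.182 (Nr4a1), and the genotype difference was 0.003 (Sik2) and -0.012 (Nr4a1) in medium and -0.048 (Nr4a1) in IL-4.

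Members had 401 counts or more in every library. The fits with the block left 5 residual degrees of freedom.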
